A study of Mus musculus with 4 samples.

Results

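A set of CC chemokine ligand genes that draw monocytes, macrophages and other myeloid cells into tissue were followed in bleomycin-treated mouse skin with and without gasdermin D: Ccl2, Ccl3, Ccl4, Ccl6, Ccl7, Ccl8, Ccl9, Ccl11, Ccl12 and Ccl19. They were picked by symbol, with earlier results of these data known, and are 10 of the 24441 genes in the deposited table. RNA sequencing had been run on 4 skin libraries, 2 from GSDMD KO (GSDMD-/-) mice and 2 from WT mice. All 4 mice were female C57BL/6 animals, labelled as 8 weeks old, and both genotypes were injected under the skin with bleomycin (BLM), a cytotoxic antibiotic used to model scleroderma, until skin was taken at day 28. The KO line was made by injecting Cas9 mRNA and a guide RNA into C57BL/6 zygotes, and WT mice of the same strain served as its control. Skin without BLM was not analysed here, so the values compare genotypes within injured skin and show nothing of what BLM itself did.

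CC chemokines are small secreted proteins that bind G protein-coupled receptors on leukocytes and steer them along a gradient. Ccl2, Ccl7 and Ccl12 act on CCR2 and draw inflammatory monocytes out of the blood, whereas Ccl3, Ccl6 and Ccl9 act on CCR1, and Ccl4, a close relative of Ccl3, draws monocytes and T cells. Ccl8 draws monocytes and T cells, Ccl11 (eotaxin-1) draws eosinophils through CCR3, and Ccl19 guides dendritic cells and naive T cells through CCR7. Monocytes that enter fibrotic skin mature into macrophages, which make many of the same ligands themselves.

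All of the ligand genes except Ccl19 lie in 2 groups on chromosome 11 of the mouse build mm9, on which the table's loci were given. The monocyte chemoattractant (MCP) group holds Ccl2 (chr11:81849079-81850954), Ccl7 (chr11:81859214-81861025), Ccl11 (chr11:81871334-81876457), Ccl12 (chr11:81915347-81916901) and Ccl8 (chr11:81928687-81930301), all on the plus strand. After a gap of 1456117 bases follows the macrophage inflammatory protein (MIP) group, with Ccl9 (chr11:83386419-83392138), Ccl6 (chr11:83401388-83406589) and Ccl3 (chr11:83461345-83462880) on the minus strand and Ccl4 (chr11:83476086-83478185) on the plus strand. Ccl6 and Ccl9 have 4 exons and the other 7 genes have 3. In the GENCODE annotation of mm9, no exon of these 9 genes overlapped an exon of another gene on either strand. The coding sequences of neighbouring ligands are related: Ccl3 and Ccl4 were identical at 67.0% of aligned positions, Ccl7 and Ccl11 at 66.3%, Ccl8 and Ccl12 at 64.8%, and Ccl6 and Ccl9 at 64.6%, against a median of 48.2% over the 45 pairs. The longest run of bases shared by the longest protein-coding transcripts of any 2 of the ligands, untranslated ends included, was 25 bases, between Ccl6 and Ccl9. Ccl9 transcripts share stretches of 50 bases with 76 other annotated genes and Ccl19 with 2, and how the authors counted reads that fit several places is not given in the sources used here. The other 8 ligands share no such stretch.

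Ccl19 is a special case. The locus given for it in the table (chr4:42248504-42250497 of mm9) is that of the annotated gene Gm2023, a copy of Ccl19, whereas Ccl19 itself is annotated at chr4:42768057-42770109. Which copy its values came from is therefore uncertain.

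Promoter windows from RefSeq on GRCm38.p6 were matched by symbol for 6 of the 10 ligands, Ccl3, Ccl6, Ccl8, Ccl9, Ccl12 and Ccl19. They are shown to give the start of genes that lie side by side. For the 5 of them on chromosome 11, the 100 bases before the start of the gene read as follows, 5′ to 3′ on the gene's own strand, with a TATA box or an NF-kB motif in capitals, at chr11:82101745-82101844 (plus) for Ccl12, chr11:82115085-82115184 (plus) for Ccl8, chr11:83578637-83578736 (minus) for Ccl9, chr11:83593088-83593187 (minus) for Ccl6 and chr11:83649379-83649478 (minus) for Ccl3.
Ccl12: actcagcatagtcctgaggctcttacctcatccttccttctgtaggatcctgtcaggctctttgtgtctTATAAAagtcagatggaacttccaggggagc
Ccl8: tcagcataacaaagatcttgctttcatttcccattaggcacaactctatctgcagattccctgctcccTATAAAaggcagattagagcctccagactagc
Ccl9: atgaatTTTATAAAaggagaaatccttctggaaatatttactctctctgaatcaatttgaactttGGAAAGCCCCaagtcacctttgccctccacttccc
Ccl6: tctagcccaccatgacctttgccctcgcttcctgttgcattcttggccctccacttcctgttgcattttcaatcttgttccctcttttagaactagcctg
Ccl3: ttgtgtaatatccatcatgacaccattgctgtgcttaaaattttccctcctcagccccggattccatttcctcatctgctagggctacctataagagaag

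In the whole windows of 300 bases (250 before and 50 after the start), both strands were searched for TATAAA as the TATA box, TGANTCA as the AP-1 motif, TTCNNNGAA (STAT), TTNCNNAA (C/EBP), GAAA repeated after any 2 bases (core of the interferon-stimulated response element, ISRE) and the NF-kB motif. The TATA box was found in the windows of 3 of the 6 ligands, with its last base at -26 in Ccl12, -27 in Ccl8 and -87 in Ccl9 (-1 being the base just before the start), and in 13.6% of all 32851 windows. The Ccl9 window held 2 more on the opposite strand, of which 1 overlaps the plus-strand match, so that the run of capitals covers both, and the other spans -224 to -219, outside the bases shown. The Ccl9 window also held the NF-kB motif (8.46% of all windows), the AP-1 motif (7.81%) and C/EBP, with 1 of its C/EBP matches overlapping the NF-kB motif. C/EBP was found in Ccl3 as well (2 of 6 ligands, 40.7% of all windows), the ISRE core in Ccl19 (3.44%), STAT in none of the 6 (8.30%), and no searched motif was found in Ccl6. These are matches of letters in a fixed window and were not tested as binding sites.

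The libraries were checked against their labels before the ligands were compared. Gsdmd, the gene knocked out, was at 14.0 and 18.2 FPKM (fragments per kb of transcript, scaled to the depth of the library) in WT skin and at 3.53 and 2.26 FPKM in KO skin. The skin label was met by keratinocyte markers, which summed to 3544 to 10656 FPKM, and skeletal muscle markers were abundant too (12235 to 19954 FPKM in sum). KO replicate 2 stood apart, because the summed markers of macrophages, fibroblasts, endothelial cells and adipocytes were at 0.0474, 0.113, 0.0975 and 0.0639 times their WT mean in it, and because 4 of 15 Y-linked genes were above 0 (1.78 FPKM in sum) in an animal labelled as female, against 0 of 15 in the other 3 libraries. Xist, which female cells express, was also highest in it, at 48.4 FPKM against 13.5 to 26.6 FPKM. KO replicate 1 stood apart by its hair follicle markers, at 308 FPKM in sum against 1.64 to 15.7 FPKM in the other libraries. For each fitted ligand the difference is therefore given with both KO libraries and with each alone, and for most other genes named the value of every library is printed.

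Most of the ligands had lower values in GSDMD KO skin, where, as in any bulk tissue, fewer cells of a type and less RNA per cell cannot be told apart. Of the 9 that passed the filter on low values (at least 1 FPKM in at least 2 libraries; Ccl19 did not), all 9 had a negative log2 fold change (41.4% of all 13027 fitted genes had one), and the median was -1.83 on the log2(FPKM + 1) scale against 0.11 over all fitted genes. In 7 of the 9 each KO library was below each WT library (background 20.5%), and 0 of the 9 had each KO library above each WT library (35.3%). With limma and Benjamini-Hochberg adjustment over all fitted genes, 0 ligands passed an adjusted p under 0.05 with a log2 fold change beyond 1, as did 0 of all 13027 genes. At an unadjusted p under 0.05 and the same size of change, 5 of the 9 were lower in KO skin (4.14% of all genes) and 0 were higher (6.16%). These 5 were Ccl2, Ccl3, Ccl4, Ccl6 and Ccl9. Single libraries weighed on both counts: leaving out KO replicate 1 let 8 ligands pass the adjusted threshold (15.8% of all genes) and leaving out KO replicate 2 let 2 pass (0.33%). At the unadjusted p, 3 were lower without WT replicate 1 (3.29% of all genes) and 9 without KO replicate 1 (12.3%). The median of the 9 was -1.07 with KO replicate 1 alone and -2.66 with KO replicate 2 alone. With 2 libraries a group the smallest two-sided p of an exact permutation test on 1 gene is 0.333, and the labels say only that the libraries are separate samples, so p-values measure the spread between these samples. Scaling by median-ratio factors moved the median of all genes from 0.11 to -0.01 and the numbers lower and higher at an unadjusted p from 539 and 802 to 700 and 614. It shifted the ligands further down with all other genes, to a median of -1.95.

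**Figure D1:**
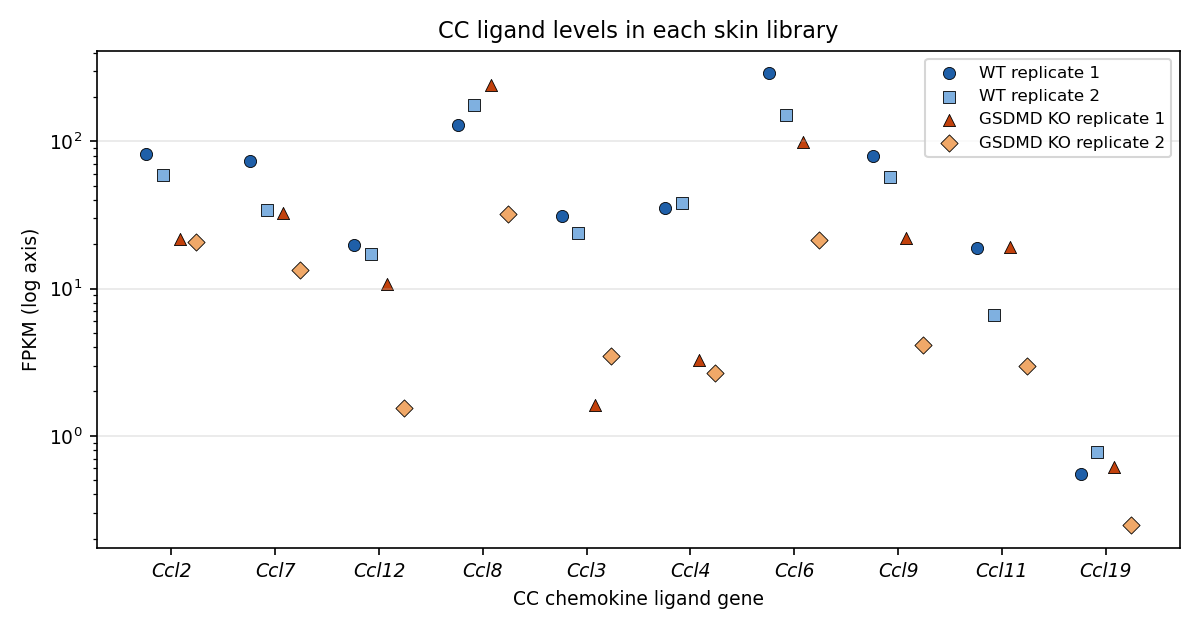
FPKM of each ligand (log axis) in the 4 skin libraries, with circles and squares for the WT libraries and triangles and diamonds for the GSDMD KO libraries, 1 point per library. Ccl3 and Ccl4 show the widest space between genotypes, with 23.7 to 37.9 FPKM in WT and 1.62 to 3.49 FPKM in KO skin, while KO replicate 1 has the highest Ccl8 value, 243 FPKM.

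Ccl3 and Ccl4, which activated macrophages and other leukocytes release, had the largest log2 fold changes of the set with both KO libraries in the fit. With KO replicate 2 alone, Ccl9 had the largest (-3.74), and Ccl6 (-3.22) and Ccl12 (-2.94) also exceeded Ccl3. Ccl3 was at 31.3 and 23.7 FPKM in WT skin and at 1.62 and 3.49 FPKM in KO skin. Both KO libraries lay far below both WT libraries, and the mean was 27.5 ± 5.32 FPKM in WT and 2.55 ± 1.32 FPKM in KO skin (SD, n = 2), a ratio of 10.8. The log2 fold change of Ccl3 came to -3.04 ± 0.35 (SE, 95% interval -3.95 to -2.14, limma adjusted p = 0.248). Ccl4 was at 35.1 and 37.9 FPKM in WT skin and at 3.28 and 2.66 FPKM in KO skin, so that each pair of libraries of 1 genotype lay close together. The means of Ccl4 were 36.5 ± 2.02 and 2.97 ± 0.443 FPKM (SD, n = 2), 12.3 times apart, and its log2 fold change of -3.24 (standard error 0.24) had the lowest adjusted p of the set, 0.190 by limma. For both genes the 2 KO libraries gave the same direction, and for Ccl4 nearly the same size. Against the WT mean, Ccl3 was at -3.43 in KO replicate 1 and -2.66 in KO replicate 2 on the log2 scale, and Ccl4 at -3.13 and -3.36. These were also the ligands that passed the adjusted threshold with KO replicate 2 left out (adjusted p = 0.00938 for Ccl3 and 0.0111 for Ccl4 by limma, where the single KO library is taken to vary like the WT ones). An estimated 17.0 and 34.1 fragments stood behind Ccl3 in the KO libraries and 29.7 and 22.4 behind Ccl4, against 261 to 422 in WT, so the KO levels carry a large counting error.

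Ccl6 and Ccl9, ligands of CCR1 found in rodents and made by myeloid cells, were also lower in KO skin, but the KO libraries differed from each other. Ccl6 was the most abundant ligand of WT replicate 1, with 289.7 FPKM there, 149.9 FPKM in WT replicate 2, and 99.1 and 21.4 FPKM in the KO libraries. The Ccl6 log2 fold change came to -2.15 ± 0.77 (SE, limma adjusted p = 0.276). Ccl9 was at 79.1 and 57.3 FPKM in WT skin and at 22.1 and 4.11 FPKM in KO skin, a log2 fold change of -2.65 ± 0.73 (SE, limma adjusted p = 0.248). The libraries of the genotypes did not overlap for either gene, yet KO replicate 1 had 4.63 times the Ccl6 and 5.39 times the Ccl9 of KO replicate 2. With KO replicate 1 alone, the log2 fold change was -1.07 for Ccl6 and -1.56 for Ccl9, and with KO replicate 2 alone it was -3.22 and -3.74. Of the fitted ligands, Ccl6 and Ccl9 had the most alike profiles over the 4 libraries, with a Euclidean distance of 0.61 between their centred log2 values, and Ccl12, of the other gene group, was almost as close to Ccl6 at 0.62. Ccl3 and Ccl4 were each other's nearest ligand at 0.82. Ccl9 is 1 of the ligands whose transcripts share stretches with other genes, as given above.

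The CCR2 ligands Ccl2, Ccl7 and Ccl12 had lower values in both KO libraries than in both WT libraries, with log2 fold changes from -1.83 to -1.23. Ccl2 (MCP-1), the main attractant of inflammatory monocytes, was at 82.6 and 59.2 FPKM in WT skin and at 21.7 and 20.7 FPKM in KO skin. The KO libraries were nearly equal, and the means were 70.9 ± 16.5 and 21.2 ± 0.721 FPKM (SD, n = 2), 3.34 times apart. The log2 fold change of Ccl2 was -1.68 ± 0.27 (SE, 95% interval -2.36 to -0.997, limma adjusted p = 0.248), and it was -1.64 with KO replicate 1 alone and -1.71 with KO replicate 2 alone. Ccl7 (MCP-3) was at 74.1 and 34.4 FPKM in WT skin and at 32.7 and 13.3 FPKM in KO skin. WT replicate 2 and KO replicate 1 were thus almost level, and the log2 fold change of -1.23 ± 0.56 (SE, limma adjusted p = 0.329) had a 95% interval from -2.66 to 0.199. It was -0.61 with KO replicate 1 alone, -1.85 with KO replicate 2 alone and -0.69 without WT replicate 1. Ccl12 (MCP-5) was even between the WT libraries, at 19.7 and 17.2 FPKM, but uneven between the KO libraries, at 10.7 and 1.53 FPKM. The Ccl12 log2 fold change came to -1.83 ± 0.73 (SE, 95% interval -3.69 to 0.0231, limma adjusted p = 0.294). It was -0.73 with KO replicate 1 alone and -2.94 with KO replicate 2 alone. An estimated 10.5 fragments stood behind the lowest Ccl12 value.

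Ccl8 and Ccl11 showed no difference between genotypes that exceeded the gap between the KO libraries, and their groups overlapped. The log2 fold changes of Ccl6, Ccl7 and Ccl12 did not exceed that gap either (2.16, 1.24 and 2.20 log2 units), though their groups did not overlap. Ccl8 (MCP-2) had 128.6 and 176.8 FPKM in WT skin, 243 FPKM in KO replicate 1 and 32.3 FPKM in KO replicate 2, so that the KO libraries held both the highest and the lowest value. Its log2 fold change was -0.75 with a 95% interval from -3.14 to 1.64 (adjusted p = 0.672 by limma), and it was 0.69 with KO replicate 1 alone and -2.19 with KO replicate 2 alone. Ccl11, which fibroblasts and epithelial cells also make, was at 18.9 and 6.63 FPKM in WT skin and at 19.2 and 2.98 FPKM in KO skin. The groups overlapped, and the log2 fold change of -0.46 had a 95% interval from -2.71 to 1.79 (adjusted p = 0.790 by limma). Ccl11 was at 0.71 above the WT mean in KO replicate 1 and at -1.63 in KO replicate 2 on the log2 scale. The row named Ccl19 was at 0.547 and 0.778 FPKM in WT skin and at 0.615 and 0.247 FPKM in KO skin, an estimated 2.35 to 8.31 fragments a library, and no difference was detectable at this depth.

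**Figure D2:**
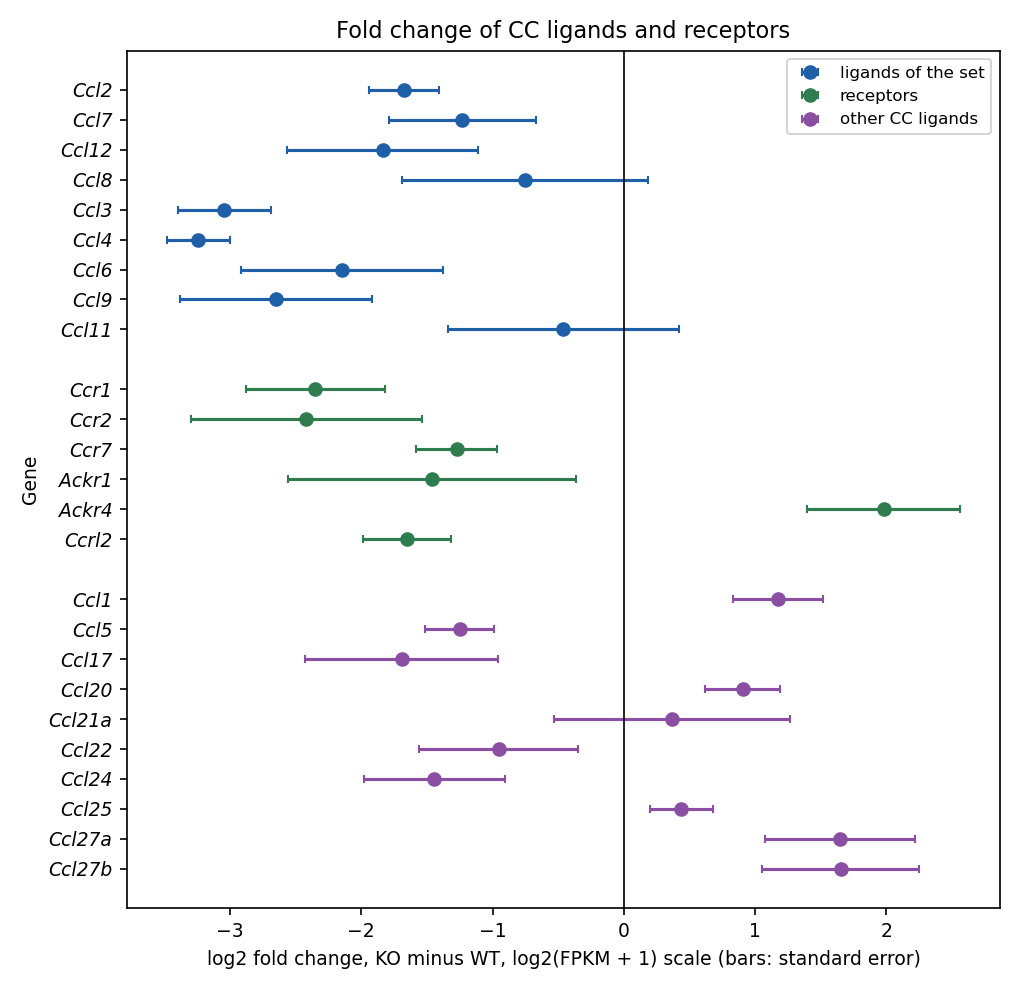
Log2 fold change, KO minus WT, on the log2(FPKM + 1) scale for the fitted ligands of the set, 6 fitted receptor and scavenger genes and the other CC ligands, with 1 point per gene and bars for the standard error (n = 2 libraries a group). The 9 ligands of the set run from -3.24 (Ccl4) to -0.46 (Ccl11), and only the bars of Ccl8 and Ccl11 among them reach 0.

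The 2 gene groups on chromosome 11 are set side by side next. In the MIP group, 4 of 4 genes were lower at an unadjusted p under 0.05 with a log2 fold change below -1 (4.14% of all genes), and the median log2 fold change was -2.85. In the MCP group, 1 of 5 genes was (Ccl2), and the median was -1.23. These counts moved with the libraries, to 2 and 1 without WT replicate 1 (3.29% of all genes), 3 and 2 without WT replicate 2 (1.86%) and 4 and 5 without KO replicate 1 (12.3%). The summed FPKM of the MIP group were 435 and 269 in WT and 126 and 31.7 in KO skin, whereas those of the MCP group were 324 and 294 in WT and 327 and 70.8 in KO skin. The MCP sum of KO replicate 1 thus lay just above both WT sums, but Ccl8 made up 243 of its 327 FPKM, while Ccl2, Ccl7 and Ccl12 were lower there than in both WT libraries. The MCP sum of KO replicate 2 was 0.229 times the WT mean. Between the KO libraries, KO replicate 1 was at 2.46 to 7.53 times KO replicate 2 for Ccl6, Ccl7, Ccl8, Ccl9, Ccl11 and Ccl12, genes of both groups. For Ccl2, Ccl3 and Ccl4 it was at 1.05, 0.463 and 1.24 times. No test of the difference between the groups of genes was made.

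**Figure D3:**
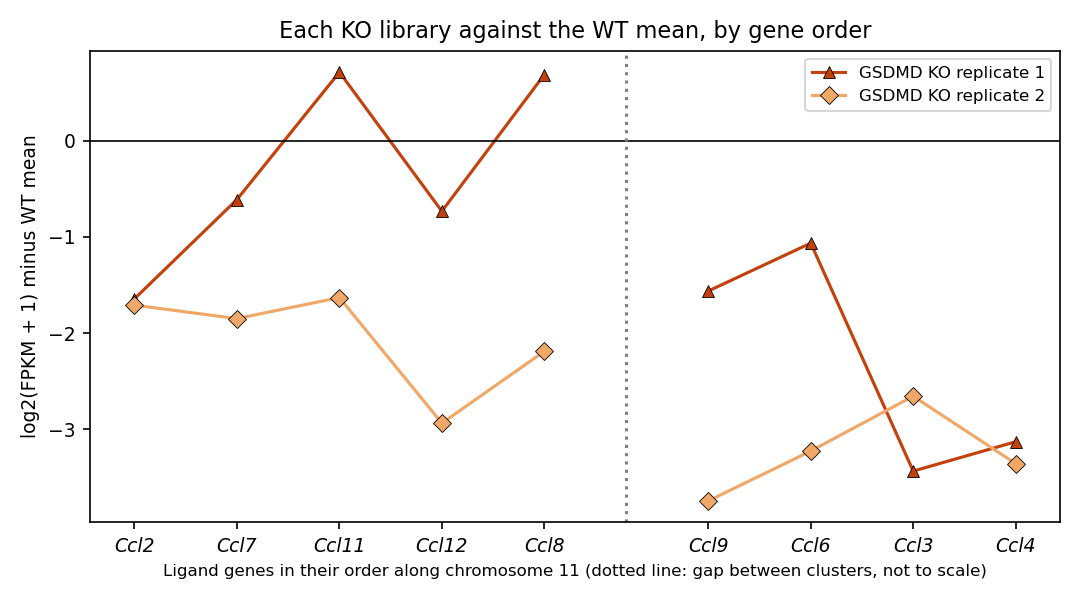
Log2(FPKM + 1) of each KO library minus the mean of the WT libraries (vertical axis), for the 9 ligands in their order along chromosome 11, with triangles for KO replicate 1, diamonds for KO replicate 2 and a dotted line at the gap between the gene groups. The 2 lines meet at Ccl2 (-1.64 and -1.71) and near Ccl4 (-3.13 and -3.36) and lie farthest apart at Ccl8 (0.69 and -2.19).

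The make-up of the ligand mRNA also differed between libraries. FPKM of the 10 ligands summed to 759 and 564 in WT and to 454 and 103 in KO skin. Ccl6 led in WT replicate 1, with 38.1% of the sum, and Ccl8 led in the other 3 libraries, with 31.4% in WT replicate 2, 53.5% in KO replicate 1 and 31.4% in KO replicate 2. Ccl3 held 4.12% and 4.21% of the sum in WT but 0.356% and 3.39% in KO skin, and Ccl4 held 4.62% and 6.72% against 0.723% and 2.59%. The shares of Ccl3, Ccl4, Ccl6, Ccl9 and Ccl12 were lower in both KO libraries than in both WT libraries. Ccl9 held 10.4% and 10.2% in WT and 4.88% and 4.0% in KO skin. Ccl2 went opposite ways, from 10.9% and 10.5% in WT to 4.78% in KO replicate 1 and 20.1% in KO replicate 2.

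**Figure D4:**
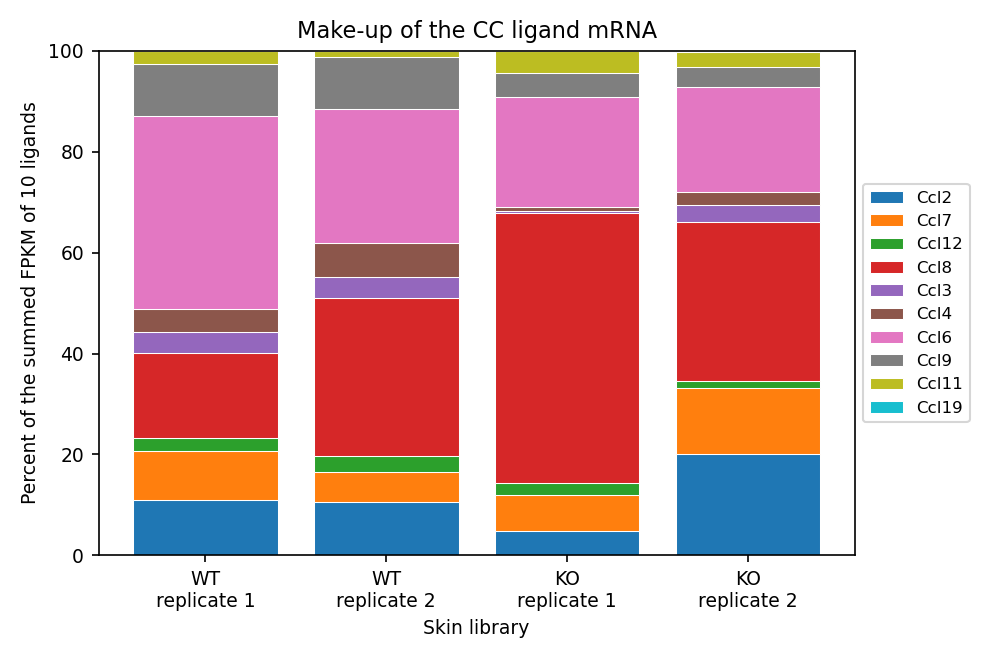
Share of each ligand in the summed FPKM of the 10 ligands (vertical axis, percent) in each of the 4 skin libraries, 1 stacked bar per library. Ccl8 makes up 53.5% of KO replicate 1, and Ccl3 and Ccl4, 4.12% to 6.72% each in WT, shrink to 0.356% and 0.723% there.

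Most of the fitted receptor and scavenger genes set beside these ligands, Ccrl2 among them, also had lower values in KO skin. Of the 9 receptor and scavenger genes, 7 were fitted, of which 5 were lower (4.14% of all genes) and 1 higher (6.16%) in KO skin at an unadjusted p under 0.05 with a log2 fold change beyond 1. The lower ones numbered 2 without WT replicate 1 (3.29% of all genes) and 3 without WT replicate 2 (1.86%). Ccr2, the monocyte receptor of Ccl2, Ccl7 and Ccl12, was at 27.0 and 17.8 FPKM in WT skin and at 9.77 and 0.708 FPKM in KO skin (log2 fold change -2.42 ± 0.88, SE, and -1.09 and -3.75 with KO replicate 1 or 2 alone). Ccr1 had 13.9 and 14.7 against 4.07 and 0.778 FPKM (log2 fold change -2.35 ± 0.53, and -1.59 and -3.11). Unlike those of its ligand Ccl3, the higher of the KO values of Ccr1 was that of KO replicate 1. Ccr7, on migrating dendritic cells and naive T cells, had 2.73 and 1.58 against 0.463 and 0.129 FPKM, and Ccrl2, which binds the chemoattractant chemerin, had 9.22 and 4.99 against 1.60 and 1.38 FPKM. The adjusted p of the genes lower in KO skin was 0.248 to 0.278 by limma. Ackr4, a scavenger of CCR7 ligands, was the exception, with 3.23 and 2.43 FPKM in WT skin against 7.37 and 25.9 FPKM in KO skin (log2 fold change 1.98 ± 0.58, and 1.14 and 2.82 with KO replicate 1 or 2 alone, adjusted p = 0.248 by limma). Ackr1, which carries chemokines across venules, was at 18.6 and 23.3 FPKM in WT skin and at 25 and 1.43 FPKM in KO skin, and the groups overlapped. Ccr3, the eosinophil receptor of Ccl11, was at most 0.110 FPKM in every library, and Ackr2, which degrades inflammatory CC chemokines, had 0.295 and 0.169 against 0.769 and 0.541 FPKM; neither was fitted.

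Other CC ligands did not share 1 direction. Of 14 such genes 10 were fitted, with a median log2 fold change of 0.40, and 2 were lower (Ccl5 and Ccl24; 4.14% of all genes) and 3 higher (Ccl1, Ccl27a and Ccl27b; 6.16%) at an unadjusted p under 0.05 with a change beyond 1. The lower ones numbered 1 without WT replicate 1 (3.29%) or KO replicate 2 (2.56%) and 5 without KO replicate 1 (12.3%). Ccl5, made by T cells and macrophages, was at 14.7 and 12.8 FPKM in WT skin and at 6.03 and 4.43 FPKM in KO skin (log2 fold change -1.25 ± 0.26, SE). Ccl24 (eotaxin-2) had 5.89 and 1.52 against 0.835 and 0.277 FPKM. Ccl17, a ligand of CCR4 on skin-homing T cells, had 21.4 and 4.97 against 4.37 and 1.39 FPKM (log2 fold change -1.69, adjusted p = 0.317 by limma), its WT libraries being 1 high and 1 close to KO replicate 1. Ccl27a, the keratinocyte ligand of CCR10, was at 120.0 and 109.0 FPKM in WT skin and at 201 and 643 FPKM in KO skin, and its near-identical copy Ccl27b had 21.9 and 19.4 against 35.9 and 124 FPKM, so reads of the 2 copies may be shared. Ccl1 had 1.76 and 0.932 against 3.20 and 5.46 FPKM. Ccl20 had 0.779 and 0.225 against 1.83 and 1.71 FPKM, and Ccl25 had 1.56 and 1.22 against 2.23 and 2.23 FPKM, so that both were above WT in both KO libraries. Ccl21a, at 1.504 and 1.44 against 7.34 and 0.215 FPKM, and Ccl22, at 7.52 and 2.68 against 3.58 and 0.828 FPKM, overlapped, and Ccl26 and Ccl28 were listed at 0 in every library.

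Cytokines known to raise CC ligand transcription in macrophages were at lower values in the KO libraries too. Il1b was at 35.7 and 59.8 FPKM in WT skin and at 2.49 and 4.65 FPKM in KO skin (log2 fold change -3.41 ± 0.39, SE, limma adjusted p = 0.248). As with Ccl3, the value of KO replicate 2 was the higher of the KO libraries. Tnf had 5.42 and 5.38 against 1.66 and 1.06 FPKM (log2 fold change -1.45 ± 0.26), and Csf1, the growth factor of macrophages, had 14.4 and 11.5 against 11.3 and 7.71 FPKM (log2 fold change -0.42 ± 0.29, adjusted p = 0.461 by limma). None of these values shows which gene acts on which.

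Macrophage, neutrophil, dendritic cell and skeletal muscle markers had sums in both KO libraries below both WT sums, so lower sums were not limited to myeloid lists. The lymphatic endothelial sum was lower too, but mostly through Pdpn. All 15 macrophage markers were fitted and had a negative log2 fold change (41.4% of all genes had one), 12 of 15 had each KO library below each WT library (20.5%), and none of the 15 was at 0 in any library. They summed to 2260 and 2367 FPKM in WT, 941 FPKM in KO replicate 1 and 110 FPKM in KO replicate 2. Cd14 was at 63.8 and 123 FPKM in WT skin and at 8.26 and 4.38 FPKM in KO skin, and Cd68 had 99.8 and 121 against 38.5 and 7.80 FPKM. Neutrophil markers summed to 759 and 619 FPKM in WT skin against 308 and 149 FPKM in KO skin. Nearly all of this sum was S100a8 (440 FPKM in WT replicate 1) and S100a9 (312 FPKM), which keratinocytes of inflamed skin also make. Cxcr2 overlapped, with 1.73 and 1.92 against 1.76 and 0.590 FPKM, as did Elane, and Ly6g and Mpo were at most 0.238 FPKM. Dendritic cell markers summed to 14.7 and 10.5 FPKM in WT skin against 9.18 and 3.22 FPKM in KO skin. Of these, Cd207 overlapped, with 2.22 and 1.63 against 4.16 and 1.46 FPKM, as did Clec9a. In the other dendritic cell markers each KO library was below each WT library. Lymphatic endothelial markers had 33.8 and 24.96 against 24.6 and 5.90 FPKM, with KO replicate 1 just below WT replicate 2. Most of the lymphatic sum was Pdpn, with 28.8 and 23.1 against 19.0 and 5.21 FPKM. Lyve1 overlapped, with 4.14 and 0.730 against 4.60 and 0.517 FPKM, as did Flt4, and Prox1 was at most 0.198 FPKM. Skeletal muscle markers were at 0.630 and 0.643 times their WT mean in KO replicates 1 and 2, and 4 of 5 had each KO library below each WT library. Fibroblast markers summed to 324 and 231 FPKM in WT, 511 FPKM in KO replicate 1 and 31.5 FPKM in KO replicate 2, and endothelial markers to 66.7, 98.0, 93.3 and 8.03 FPKM in the same order. Keratinocyte markers were at 2.51 and 1.205 times, and mast cell markers at 1.44 and 0.162 times, their WT mean in KO replicates 1 and 2. Lower marker sums thus extended beyond the myeloid lists in both KO libraries, to skeletal muscle and, mostly through Pdpn, to the lymphatic endothelial list. In KO replicate 2 they extended to more lists. The part of any of these lists in the ligand values was not tested. The eosinophil markers, relevant to Ccl11, summed to at most 0.455 FPKM, and Epx, which defines these cells, was listed at 0 in all 4 libraries.

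**Figure D5:**
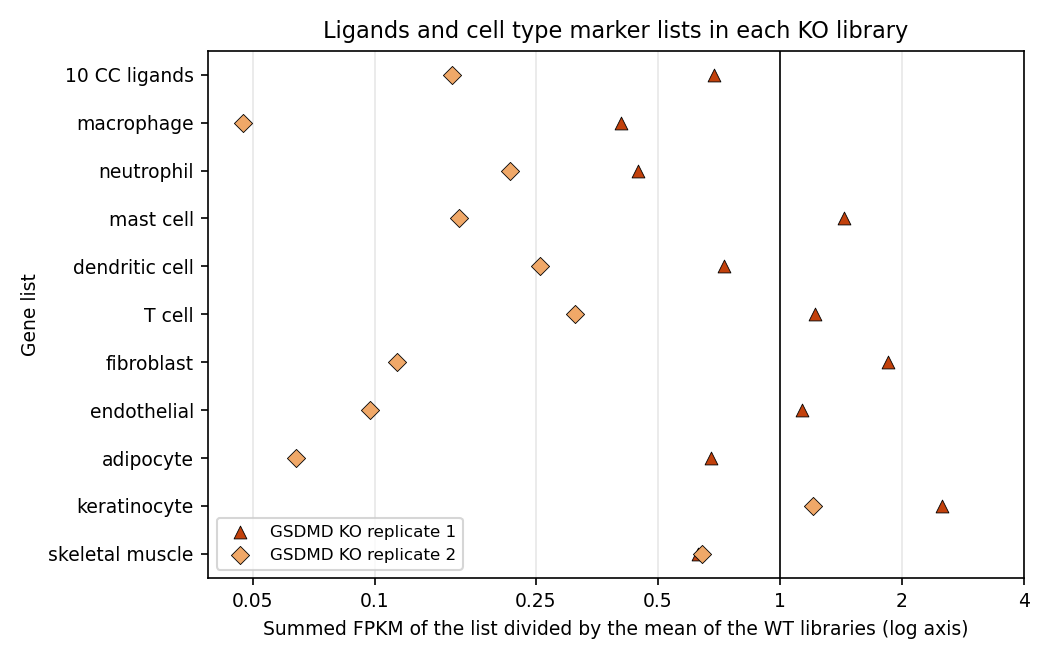
Summed FPKM of the 10 ligands and of 10 cell type marker lists in each KO library divided by the mean of the WT libraries (log axis), with triangles for KO replicate 1 and diamonds for KO replicate 2. In KO replicate 2 the ligands are at 0.155 times and macrophage markers at 0.0474 times the WT mean, and in KO replicate 1 at 0.686 and 0.407 times.

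The ligands were also set against the macrophage markers of their own library. The mean log2(FPKM + 1) of the 15 macrophage markers was 5.64 and 5.94 in WT and 4.67 and 2.21 in KO skin, and it was subtracted from each ligand's log2 value as a description with no test. Because that mean was much lower in KO skin, 95.6% of all fitted genes then had each KO library above each WT library, and 0.192% each below. Of the 9 fitted ligands 3 did, Ccl8, Ccl11 and Ccl12, by 1.60, 1.89 and 0.51 on average, and 0 had each KO library below. Ccl8 stood at 1.38 and 1.53 relative to the markers in WT and at 3.26 and 2.85 in KO skin. For Ccl2, Ccl3, Ccl4, Ccl6, Ccl7 and Ccl9 the groups overlapped. Ccl3 stood at -0.63 and -1.31 in WT, at -3.28 in KO replicate 1 and at -0.05 in KO replicate 2, and Ccl4 at -0.47 and -0.66 against -2.57 and -0.34. In KO replicate 1 both thus lay below both WT values, as did Ccl2 (-0.17) and Ccl9 (-0.14), and in KO replicate 2 none of the 4 did. The markers themselves were uneven: against the WT mean, Cd14 was at -3.28 and Itgam at -2.37 in KO replicate 1 on the log2 scale, close to or beyond the values of some ligands.

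The genes outside all lists whose 4-library profile was most like the median profile of the fitted ligands were Ifi209, Ifi207, Pet117, Ms4a4c and AI467606, at Euclidean distances of 0.15 to 0.36 log2 units. Ifi209, an interferon-inducible gene, was at 9.71 and 6.84 FPKM in WT skin and at 3.56 and 0.552 FPKM in KO skin. Ms4a4c had 16.3 and 11.2 against 7.28 and 0.829 FPKM. Likeness over 4 libraries is given as a description only.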

How the data were processed

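RNA sequencing of skin had been run on 2 WT and 2 GSDMD KO libraries. Per the submitters' processing notes, HISAT2 (version 2.0.1), StringTie (version 2.0.6) and the genome build mm9 were used. The deposited table is named as counts, but fractions make up 99.993% of the values above 0, and the authors' values were read as FPKM, which the authors had scaled to transcript length and depth. The test planned for read counts was therefore replaced by limma (version 3.58.1, R version 4.3.3) on log2(FPKM + 1), a scale that understates the change of low genes. The fit took the genes that reached 1 FPKM in 2 or more libraries, with genotype as the only term, a mean-variance trend and Benjamini-Hochberg adjustment, and the procedure was tested on simulated data. A call needed an adjusted p below 0.05 together with a log2 fold change beyond 1 in size. Depth was estimated from the spacing of low values in 2710 genes that have 1 transcript each, at 12800000 to 17600000 fragments a library, and is approximate. All 4 columns of values were used and 0 were left out.

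The genes named are every ligand of the set, Gsdmd, fitted receptors and other CC ligands, receptors and ligands below the filter where their list is counted, Il1b, Tnf, Csf1, examples from the marker lists, and the genes with the nearest profiles. Some genes counted in the lists are not reported here by name. The members and lists were chosen with earlier results of these data known, so no list is independent evidence. Coding-sequence identity was computed on mm9 GENCODE transcripts in place of the planned protein identity, because protein sequences were not used here. Python (version 3.11.15) with pandas (version 2.3.3) joined the tables. The alternatives were other pseudocounts (0.1 and 0.5), scalings and filters, no trend, the replicate number as a block, and leaving out each library. A crossed block was added after seeing the data.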

Additional observations from a re-analysis of the deposited data

How the results depend on the processing

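Of the 36 ligand values computed with 1 library left out, 3 turned direction. Another scaling multiplies all values of a library by the same factor, and no fitted ligand moved by as much as the smallest ligand difference, -0.46 for Ccl11. Some other genes moved by more on the log2(FPKM + 1) scale, as Ccr7 did, from -1.27 to -1.79, with every library rescaled to the same sum. The filters, the variance model and the block leave the fold change as it is. Neither they nor a scaling common to all genes of a library bears on the stability of a direction. The 3 that turned were Ccl8, at 0.69 without KO replicate 2, and Ccl11, at 0.23 without WT replicate 1 and 0.71 without KO replicate 2. Without KO replicate 1 they were at -2.19 and -1.63. The number of ligands past the adjusted threshold was 0 with every library in the fit and 0 to 8 with 1 library left out: 8 without KO replicate 1 (all fitted ligands but Ccl11, adjusted p = 0.0775 by limma), where 2058 of all genes passed, and 2 without KO replicate 2 (Ccl3 and Ccl4), where 43 passed. In these fits the lone library is assumed to vary like the other group. Ligands lower at an unadjusted p under 0.05 numbered 5, and 3 to 9 with 1 library left out (3 without WT replicate 1, 9 without KO replicate 1). The receptors numbered 5, and 2 to 6, with 2 without WT replicate 1 and 3 without WT replicate 2. The other CC ligands numbered 2, and 1 to 5, with 1 without WT replicate 1 or KO replicate 2, 5 without KO replicate 1, and 1 without the filter on low values. The median log2 fold change of the ligands ran from -2.66 to -1.07 with 1 library left out and to -2.14 with a pseudocount of 0.1. The cause of these shifts was not tested. Same-numbered libraries had a correlation of deviations of -0.20 over 13027 genes, and nothing says that they share a litter, so they were not paired. With a replicate block, 7 ligands, 5 receptors and 3 other ligands were lower at an unadjusted p, and 0 ligands passed the adjusted threshold (5.27% of all genes were lower in that fit). With the crossed block, chosen after seeing the data, the numbers were 4, 4 and 1 (5.23% of all genes). With an estimated 12800000 to 17600000 fragments a library, the KO values of Ccl3, Ccl4 and Ccl12 rest on few fragments, and Ccl19 was below what could be compared.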
